A study of Mus musculus with 6 samples.

Results

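The NRF2 antioxidant battery was followed through 10 genes in activated splenic B cells with and without the aryl hydrocarbon receptor (AhR). These were *Nfe2l2*, *Keap1*, *Nqo1*, *Hmox1*, *Gclc*, *Gclm*, *Gsr*, *Slc7a11*, *Txnrd1* and *Srxn1*. They were chosen by name and function from the 23420 genes of the count table, with earlier results of these data known. All 10 had enough reads to be tested. The control mice were Ahr+/+ and the knock-out mice were Ahr-/-, with 3 libraries per genotype, both labelled with the C57Bl/6J background. The knock-out is the germline allele *Ahr* tm1Bra, so other cells of these mice lacked AhR too. As a general rule, the study's methods give mice older than 8 weeks, matched for age and sex, with exceptions noted where they apply. B cells of both genotypes were isolated from spleen and kept for 8 h in IMDM with 5% FCS, anti-IgM at 10 ug/ml, which engages the B-cell receptor, and IL-4 at 20 ng/ml. Both genotypes also received 250 nM FICZ, a tryptophan-derived ligand of AhR, during the last 4 h. There was no library without FICZ and none from resting cells, so each value below compares genotypes in activated, ligand-exposed cells. Whether same-numbered libraries came from cage mates or from 1 day of culture was not given.

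NRF2, the product of *Nfe2l2*, is a transcription factor that is held at a low level by KEAP1. KEAP1 is an adaptor of a CUL3 ubiquitin ligase, and it carries reactive cysteines. When electrophiles or oxidants modify these, NRF2 is no longer degraded, pairs with a small MAF protein and binds the antioxidant response element (ARE) of genes for quinone reduction, glutathione synthesis and thioredoxin reduction. AhR works by a parallel route. It pairs with ARNT after binding a ligand and recognises the dioxin response element (DRE), as in *Cyp1a1*. *Nqo1* is known from other tissues as a target of both pathways, and *Nfe2l2* itself has been described as an AhR target.

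Of the 10 members, 6 were lower in Ahr-/- B cells, 0 were higher and 4 did not pass the test of edgeR. At an unadjusted p under 0.05, and also by DESeq2's Wald test, these counts were again 6 lower and 0 higher. A member was called when its p-value from edgeR's quasi-likelihood test, adjusted over all 13682 genes tested, was under 0.05. Over all those genes 8.13% were lower, 9.79% were higher and 17.9% were called in either direction. The 6 lower members were *Nqo1*, *Srxn1*, *Txnrd1*, *Nfe2l2*, *Gclc* and *Gclm*. In each of them every Ahr-/- library lay below every Ahr+/+ library, and groups without overlap were found for 33.5% of all genes tested. Levels are given as normalized counts, the count divided by the relative, TMM-scaled size of its library. The median log2 fold change was −0.34 over the 10 members, set beside 0.00 over all genes tested. These shares and medians are a description, since the members were chosen with earlier results of these data known. Members differed widely in size of change. *Nqo1* was 23-fold lower, whereas the other 5 called members were between 1.22-fold and 1.83-fold lower. All 13 alternative fits left these 6 calls as they were.

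**Figure D1:**
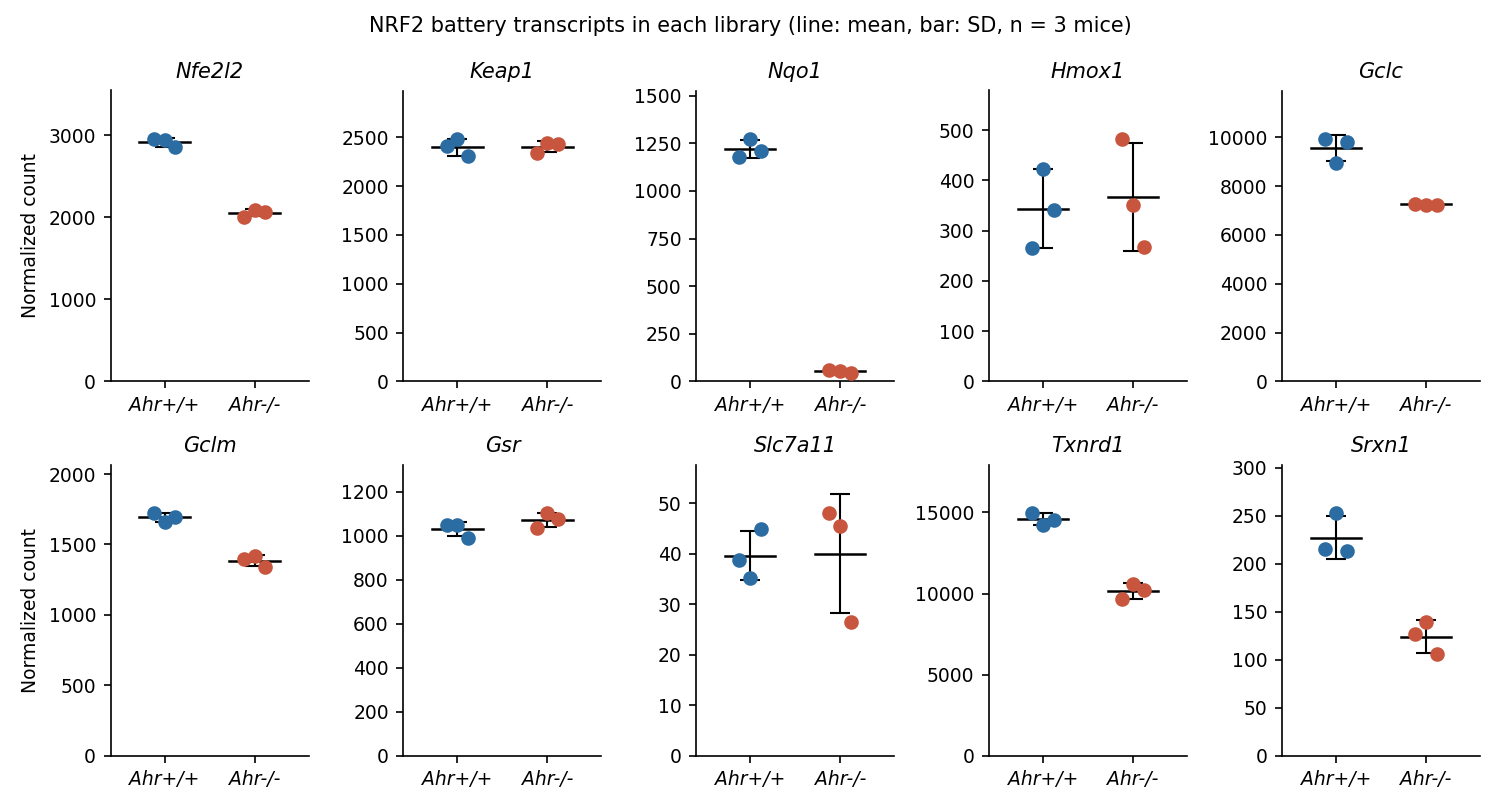
Normalized counts of each member (vertical axes, from 0 and scaled per gene) in the 3 Ahr+/+ and 3 Ahr-/- libraries, 1 point per library, with the mean as a line and the SD as a bar. *Nqo1* drops to between 42.85 and 61.79 in Ahr-/- libraries, while *Keap1*, *Hmox1*, *Gsr* and *Slc7a11* overlap between genotypes.

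Library totals lay between 22095096 reads counted on genes in Ahr-/- replicate 1 and 53648787 in Ahr-/- replicate 2, so that a floor of 3 counts stood for 0.0555 to 0.134 CPM, a count scaled to the size of the library, for counting error only. No library repeated another, and the first principal component, with 77.2% of the variance of 9692 well-covered genes, separated the genotypes. *Ahr* itself, counted over the whole gene, was lower in every Ahr-/- library, with 13180 ± 682 against 9174 ± 472 normalized counts (SD, n = 3 per genotype) and a log2 fold change of −0.52 (adjusted p = 7.1e-06 from edgeR). Which exons those reads cover cannot be read from a count over the gene, which also overlaps *Gm48236* on the opposite strand. *Cyp1a1*, the prototypical AhR target, fell by 10.04 on the log2 scale (adjusted p = 1.6e-14 from edgeR). It had 5120, 5404 and 4743 raw counts in Ahr+/+ libraries and 4, 4 and 7 in Ahr-/- libraries. The size of that fall thus rests on counts near the floor. Summed B-cell markers were abundant in all libraries, at 85400 to 89440 normalized counts in Ahr+/+ and 98320 to 103100 in Ahr-/-, with 4 of 8 markers higher and 1 lower. Dendritic cell markers were higher for 7 of 12 and lower for 2, and their sum was lower in Ahr-/- libraries, at 8383 to 9141 in Ahr+/+ and 6069 to 6461 in Ahr-/-. Most of this sum was *Tcf4*, which B cells also express, and without it the direction turned, with 1174 to 1271 in Ahr+/+ and 1637 to 1657 in Ahr-/- libraries. Of the T and NK cell markers, 1 of the 8 in the table was lower and 2 were higher, with sums of 185.3 to 332 and 238 to 279.4. Of 8 neutrophil markers 0 were called by edgeR or DESeq2, with 2 higher at an unadjusted p under 0.05 and sums of 137.9 to 385.3 and 152.3 to 573.7. In bulk RNA, fewer cells of a type and less RNA per cell cannot be told apart, and the part of other cells in the differences below was not tested.

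The letters upstream of the start sites are shown for the members that differed most or that hold an ARE core. RefSeq promoter windows, from 250 bases before to 50 bases after a start site on GRCm38.p6, were matched by symbol for 7 of the 10 members, with 3 windows for *Txnrd1* and 9 windows in all. *Hmox1*, *Gclc* and *Gsr* were not matched. Both strands were searched for the ARE core TGACNNNGC and the DRE core GCGTG, and no match to one core overlapped a match to the other. Each run gives the 250 bases before the start site, 5′ to 3′ on the strand of the gene, with matches in capitals. A match to the other strand therefore reads CACGC for the DRE core. *Nqo1* is on the minus strand at chr8:107403206-107403455, *Nfe2l2* on the minus strand at chr2:75704664-75704913, *Gclm* on the plus strand at chr3:122245307-122245556, *Srxn1* on the plus strand at chr2:152105274-152105523 and the second window of *Txnrd1* on the plus strand at chr10:82858956-82859205.
Nqo1: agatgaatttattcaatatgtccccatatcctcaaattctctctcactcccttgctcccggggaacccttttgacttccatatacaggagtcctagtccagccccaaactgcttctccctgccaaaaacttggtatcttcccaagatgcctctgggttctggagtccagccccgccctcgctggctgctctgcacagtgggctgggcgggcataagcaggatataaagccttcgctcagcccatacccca
Nfe2l2: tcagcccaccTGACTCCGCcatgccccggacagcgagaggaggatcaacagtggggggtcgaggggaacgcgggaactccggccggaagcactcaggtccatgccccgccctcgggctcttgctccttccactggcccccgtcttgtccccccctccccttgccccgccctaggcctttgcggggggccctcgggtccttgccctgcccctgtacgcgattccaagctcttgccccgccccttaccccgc
Gclm: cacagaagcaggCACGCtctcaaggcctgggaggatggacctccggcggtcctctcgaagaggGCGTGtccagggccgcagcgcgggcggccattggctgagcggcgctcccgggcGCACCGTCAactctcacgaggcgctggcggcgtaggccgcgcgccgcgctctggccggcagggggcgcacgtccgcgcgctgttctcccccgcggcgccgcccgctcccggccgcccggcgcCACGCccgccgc
Srxn1: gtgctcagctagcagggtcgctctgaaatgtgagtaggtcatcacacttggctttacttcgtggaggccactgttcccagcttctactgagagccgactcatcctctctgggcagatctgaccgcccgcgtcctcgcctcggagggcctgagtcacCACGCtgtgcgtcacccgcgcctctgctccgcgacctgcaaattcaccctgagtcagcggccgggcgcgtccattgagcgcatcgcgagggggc
Txnrd1: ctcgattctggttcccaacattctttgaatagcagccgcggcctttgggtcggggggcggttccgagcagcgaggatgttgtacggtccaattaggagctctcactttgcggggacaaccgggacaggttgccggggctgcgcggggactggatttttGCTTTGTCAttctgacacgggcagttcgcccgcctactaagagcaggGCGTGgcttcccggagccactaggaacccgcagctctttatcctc

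The *Nqo1* window held neither core, and neither did that of *Slc7a11*. An ARE core was found in the windows of 4 members. Counted from the start site, its first base was at −240 in *Nfe2l2*, −134 in *Gclm* and −92 in *Txnrd1*. In *Srxn1* it lay in the 50 bases after the start site, which are not printed. Over all 32851 promoter windows of the table, 12.4% held an ARE core. The DRE core was found in the windows of 4 of the 7 matched members, *Keap1*, *Gclm*, *Txnrd1* and *Srxn1*, and in 32.4% of all windows. For both cores a count of members and a share of windows are unlike measures, since *Txnrd1* had 3 windows. *Gclm* had 3 DRE cores. These matches describe letters in short windows and were not tied to binding.

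*Nqo1* encodes NAD(P)H quinone dehydrogenase, a cytosolic flavoenzyme that reduces quinones without releasing semiquinones. In the Ahr+/+ libraries its level was 1179, 1273 and 1211 normalized counts. In Ahr-/- libraries it had 61.79, 56.87 and 42.85. The Ahr+/+ libraries were all high and close to each other, the Ahr-/- libraries were all low, and the gap between groups was many times the spread within either. The means were 1221 ± 47.6 and 53.84 ± 9.82 (SD, n = 3 per genotype), so that 4.41% of the Ahr+/+ level was left. This is a log2 fold change of −4.53 ± 0.096 (SE), with a 95% confidence interval of −4.74 to −4.32 (edgeR, adjusted p = 7.7e-12). An exact two-sided permutation test over the libraries gave p = 0.1, the smallest possible with 3 against 3. The remaining reads were few but above the floor, at 36, 80 and 47 raw counts. Ranked by log2 fold change among the lower genes, *Nqo1* stood at place 18 of 1113, and between 11 and 21 in the alternative fits, with 11 when only genes with 10 or more counts in 3 or more libraries were kept. The gene lies on chromosome 8 of GRCm38 from 107388225 to 107403206 on the minus strand, with no annotated gene overlapping it on the other strand.

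*Hmox1*, on chromosome 8 from 75093621 to 75100589, encodes haem oxygenase 1, the inducible enzyme that opens the haem ring. Its normalized counts were 266.1, 422.6 and 341.4 in Ahr+/+ libraries and 482.3, 350.5 and 268.1 in Ahr-/- libraries. Both groups covered nearly the same range, and the highest and lowest values came from different genotypes. The means were 343.4 ± 78.2 and 366.9 ± 108 (SD, n = 3 per genotype), and the log2 fold change was 0.06 with a 95% confidence interval of −0.36 to 0.47 (adjusted p = 0.88 from edgeR). The interval does not reach the change of *Nqo1*, and its lower end lies just above the −0.40 of *Gclc*. It does hold a change of the size seen in *Gclm*, −0.29.

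The values of *Hmox1* were set beside the marker sums of other spleen cells after they were seen. Summed erythroid markers were 35.94, 99.61 and 58.4 normalized counts in Ahr+/+ libraries and 111.6, 74.64 and 34.65 in Ahr-/- libraries. Their order over the 6 libraries was that of *Hmox1*, except that the 2 libraries at the bottom changed places. Of the erythroid markers 7 were in the table, 5 were tested and 0 were called by edgeR, by DESeq2 or at an unadjusted p under 0.05, while *Hba-a1* and *Hba-a2* were at 0 in every library. The 14 macrophage markers had sums of 1235, 1581 and 1384 in Ahr+/+ and 998.9, 1193 and 646.5 in Ahr-/- libraries, where *Emr1* was lower and *Marco* higher. Without *Emr1* the sums were 580.8, 918.6 and 750.2 against 935.4, 1130 and 610.9. Single markers of this list, picked after their values were seen, peaked in different libraries. *Spic*, *Cd5l* and *Vcam1* were highest in Ahr-/- replicate 1, like *Hmox1*, at 46.34, 30.89 and 78.95 normalized counts, whereas *Csf1r* and *Lyz2* were highest in Ahr-/- replicate 2, at 211.8 and 359.7. The sums of neutrophil markers were highest in Ahr-/- replicate 2, and those of T and NK cell markers in Ahr+/+ replicate 2. The part of these cells in the level of *Hmox1* was not tested.

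**Figure D2:**
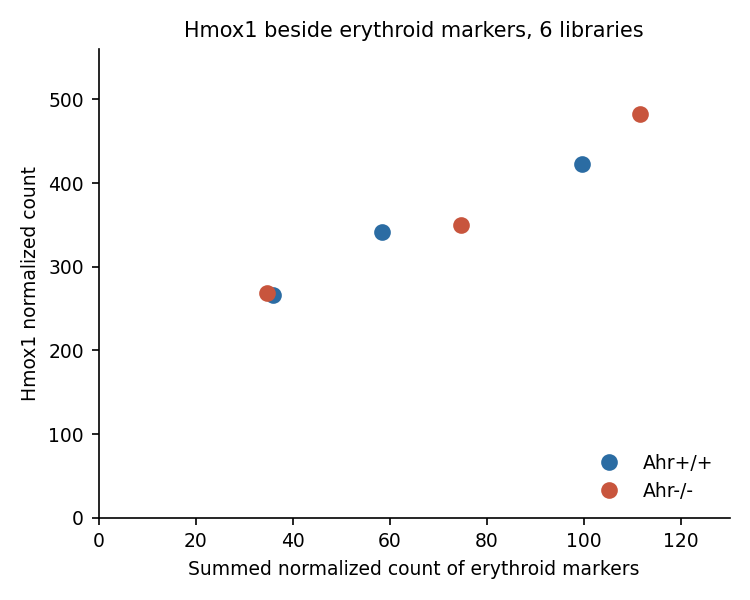
Normalized count of *Hmox1* (vertical axis) against the summed normalized count of erythroid markers (horizontal axis), 1 point per library and coloured by genotype. The lowest *Hmox1* values, 266.1 and 268.1, stand at the lowest marker sums, 35.94 and 34.65, and the highest, 482.3, at the highest sum, 111.6.

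Of the regulators, *Nfe2l2* was lower and *Keap1* was not called. *Nfe2l2* had 2953, 2935 and 2854 normalized counts in Ahr+/+ libraries and 2006, 2089 and 2067 in Ahr-/- libraries. Within each genotype the values nearly coincided, and the groups lay well apart. The means were 2914 ± 52.8 and 2054 ± 42.9 (SD, n = 3 per genotype), or 70.5% of the Ahr+/+ level, and differed by −0.50 ± 0.037 (SE) on the log2 scale (edgeR, adjusted p = 1.2e-06). *Keap1* had 2408, 2482 and 2309 normalized counts in Ahr+/+ and 2339, 2437 and 2430 in Ahr-/- libraries, which interleaved. Its log2 fold change was 0.00 with a 95% confidence interval of −0.09 to 0.09 (adjusted p = 0.97 from edgeR), an interval that does not reach the change of *Nfe2l2*. *Nfe2l2* lies on chromosome 2 from 75675513 to 75704641 and *Keap1* on chromosome 9 from 21229730 to 21239361, both on the minus strand. The transcript level of *Nfe2l2* does not show the level of the NRF2 protein, which is set largely by degradation.

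The glutathione members divided into the subunits of a synthesis enzyme, which were lower, and genes of recycling and cystine import, which were not called. *Gclc* and *Gclm* encode the catalytic and modifier subunits of glutamate-cysteine ligase, the first and rate-limiting enzyme of glutathione synthesis. *Gclc* had 9926, 8930 and 9798 normalized counts in Ahr+/+ libraries against 7280, 7218 and 7236 in Ahr-/- libraries. Ahr-/- libraries were almost equal to each other, and the spread of the Ahr+/+ group came from replicate 2, which still lay above them. On the log2 scale the difference was −0.40 ± 0.043 (SE), with an adjusted p of 3.1e-05 by edgeR. *Gclm* had 1722, 1661 and 1695 against 1395, 1418 and 1340 normalized counts, again without overlap, a difference of −0.29 ± 0.042 (SE) on the log2 scale (edgeR, adjusted p = 3.8e-04). The subunits thus stood at 75.9% and 81.8% of their Ahr+/+ levels, and the genes lie on different chromosomes, *Gclc* on 9 from 77754535 to 77794485 and *Gclm* on 3 from 122245557 to 122270732.

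*Gsr*, which encodes glutathione reductase and returns oxidised glutathione to its reduced form, had 1050, 1048 and 991.7 normalized counts in Ahr+/+ and 1037, 1102 and 1074 in Ahr-/- libraries. The groups overlapped, and the log2 fold change of 0.06 had a 95% confidence interval of −0.05 to 0.17 (adjusted p = 0.47 from edgeR), which leaves out the changes of both ligase subunits. *Slc7a11*, the light chain of the cystine-glutamate exchanger, had the fewest reads of the 10 members in Ahr+/+ libraries, with 40, 35 and 40 raw counts in Ahr+/+ and 28, 64 and 29 in Ahr-/- libraries. After normalization the values were 38.85, 35.21 and 44.92 against 48.06, 45.5 and 26.44, and Ahr-/- libraries held both the highest and the lowest. Its log2 fold change was −0.01 with a 95% confidence interval of −0.55 to 0.53 (adjusted p = 0.99 from edgeR), an interval that holds changes of the size seen in *Txnrd1* and *Gclc*. *Gsr* lies on chromosome 8 from 33652523 to 33698163, and *Slc7a11* on chromosome 3 from 49892526 to 50443614.

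Both thioredoxin-linked members were lower. *Txnrd1* encodes cytosolic thioredoxin reductase, a selenoprotein that passes electrons from NADPH to thioredoxin. It had 14950, 14240 and 14560 normalized counts in Ahr+/+ libraries and 9637, 10570 and 10230 in Ahr-/- libraries, without overlap. The means were 14580 ± 357 and 10150 ± 471 (SD, n = 3 per genotype), 69.6% of the Ahr+/+ level, and the difference was −0.52 ± 0.041 (SE) on the log2 scale (edgeR, adjusted p = 1.8e-06). *Srxn1* encodes sulfiredoxin, which repairs overoxidised peroxiredoxins. It had 215.6, 252.5 and 213.4 normalized counts against 127, 139.3 and 105.8. The libraries of each genotype were more scattered than for *Txnrd1* and still did not overlap. The fold change of *Srxn1* was the largest after that of *Nqo1*, although its interval overlapped that of *Txnrd1*, at −0.87 ± 0.13 (SE) on the log2 scale with a 95% confidence interval of −1.15 to −0.59 (edgeR, adjusted p = 4.5e-04), or 54.6% of the Ahr+/+ level. *Txnrd1* lies on chromosome 10 from 82833951 to 82897712 and *Srxn1* on chromosome 2 from 152105516 to 152111376, both on the plus strand.

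**Figure D3:**
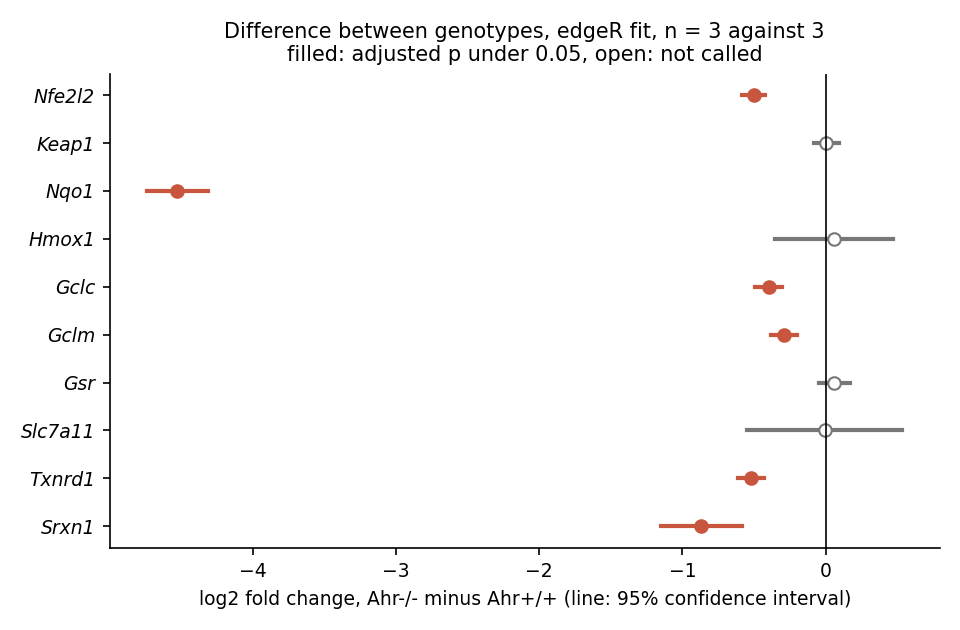
log2 fold change of each member, Ahr-/- minus Ahr+/+ (horizontal axis), from the edgeR fit to 3 libraries per genotype, with the 95% confidence interval as a line. Filled points passed an adjusted p of 0.05, and *Nqo1* at −4.53 stands apart from the other called members, which run from −0.87 to −0.29.

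None of the members lies on chromosome 12, which holds *Ahr*, and the 10 genes are spread over 5 chromosomes. *Keap1*, *Gclm*, *Slc7a11* and *Txnrd1* overlap another annotated gene on the opposite strand. Because the strand setting of the counting was not given, reads of these partners cannot be told apart from theirs. On the same strand an annotated gene overlaps *Nfe2l2*, *Gclm*, *Gsr*, *Slc7a11* and *Txnrd1*, and a strand setting does not separate these.

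Levels of different genes were compared only per length, as TMM-scaled CPM per kilobase of the longest principal transcript. In Ahr+/+ B cells the order was *Txnrd1* at 107 ± 2.64, *Gclc* at 72.6 ± 4.12, *Nfe2l2* at 30.6 ± 0.554, *Nqo1* at 20.5 ± 0.797, *Keap1* at 17.3 ± 0.625, *Gsr* at 10.0 ± 0.323, *Gclm* at 7.88 ± 0.142, *Hmox1* at 5.69 ± 1.3, *Srxn1* at 2.10 ± 0.203 and *Slc7a11* at 0.112 ± 0.0138 (SD, n = 3). No neighbours in this order overlapped. *Nqo1* was thus the fourth most abundant of the 10 in Ahr+/+ B cells. In Ahr-/- B cells it was the ninth, at 0.902 ± 0.164 (SD, n = 3), and overlapped *Srxn1* at 1.15 ± 0.157. The other 9 kept their order, with *Gclm* at 6.44 ± 0.186 and *Hmox1* at 6.08 ± 1.79 overlapping. Taking the union of all exons as the length, an alternative added after seeing the data, put *Gclc* above *Txnrd1* in both genotypes and let *Nqo1* and *Nfe2l2* overlap in Ahr+/+ B cells.

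To set the change of *Nqo1* against that of the other members without any normalization, the log2 ratio of its raw count to that of each other member was taken within each library. Relative to *Nfe2l2* the ratio was −1.32, −1.21 and −1.24 in Ahr+/+ libraries and −5.02, −5.2 and −5.59 in Ahr-/- libraries. Relative to *Srxn1* it was 2.45, 2.33 and 2.5 against −1.04, −1.29 and −1.3, so *Nqo1* changed from the more to the less counted of that pair. For all 9 ratios every Ahr-/- library was below every Ahr+/+ library. The difference between genotypes ran from −3.64 for *Srxn1* to −4.60 for *Hmox1*, a larger fall of *Nqo1* than of each other member in these libraries. Each of the 9 two-sided exact permutation tests gave p = 0.1, the smallest that 3 against 3 allow, and 0.1 after Benjamini-Hochberg adjustment, so none could pass 0.05 at this size.

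**Figure D4:**
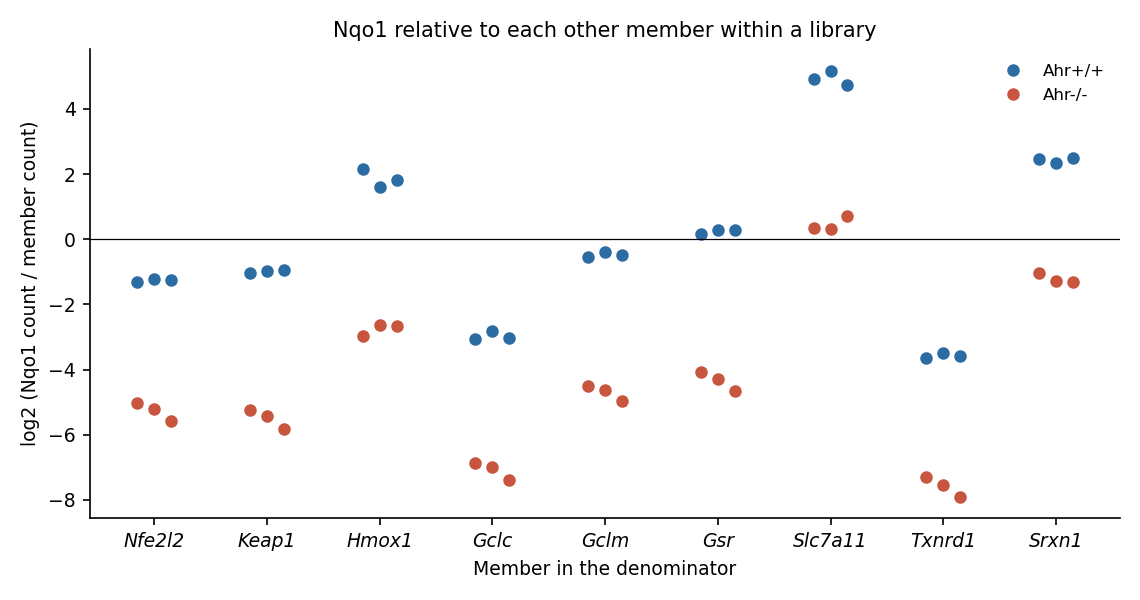
log2 ratio of the raw count of *Nqo1* to that of each other member (vertical axis) within each library, 1 point per library, for the 9 members named on the horizontal axis. Ahr-/- libraries lie below all Ahr+/+ libraries for every member, with mean differences from −3.64 (*Srxn1*) to −4.60 (*Hmox1*).

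The members sit in a larger redox system. Of 107 further genes listed by function 96 were tested, of which 12 were lower and 9 higher in Ahr-/- B cells, beside the 8.13% and 9.79% of all genes tested. Their median log2 fold change was 0.02. Of the genes that control or partner NRF2, 2 of 15 tested were lower and 0 were higher by edgeR, against 4 and 1 at an unadjusted p under 0.05 and 3 and 0 by DESeq2. *Btrc*, a substrate receptor of a second ubiquitin ligase of NRF2, had 1912, 1925 and 1904 normalized counts in Ahr+/+ and 1085, 991 and 1045 in Ahr-/- libraries (log2 fold change −0.89, adjusted p = 3.5e-08 from edgeR). *Sqstm1*, the autophagy receptor p62 that binds KEAP1, was at 86.5% of its Ahr+/+ level (log2 fold change −0.21, adjusted p = 0.0011 from edgeR). The other 13 tested genes of this list were not called.

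In the glutathione list, members left out, 1 of 14 tested genes was lower and 2 were higher. *Glrx*, glutaredoxin, rose from 147.4 ± 8.35 to 237.8 ± 24 normalized counts (SD, n = 3 per genotype, log2 fold change 0.69, adjusted p = 8.4e-04 from edgeR), opposite to the ligase subunits. *Chac1*, which degrades glutathione, had a log2 fold change of 0.32, and *Slc3a2*, the heavy chain partner of *Slc7a11*, one of −0.13. In the thioredoxin list 2 of 17 were lower, *Sesn3* at −0.23 and *Prdx1* at −0.17, and *Prdx5* was higher at 0.15. Of the NADPH-supplying genes 1 of 13 was lower and 4 were higher. The lower one was *G6pdx*, of the pentose phosphate pathway, at −0.13. *Nnt*, the mitochondrial transhydrogenase, went from 854.1 ± 22.5 to 1190 ± 52.5 normalized counts (SD, n = 3 per genotype, log2 fold change 0.48, adjusted p = 3.4e-05 from edgeR). The C57BL/6J strain is known to carry a deletion within *Nnt*, and a count over the gene does not show which exons its reads cover. The other higher genes were *Pgls* at 0.25, *Idh2* at 0.22 and *Mthfd2* at 0.20.

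Among 11 other haem and iron genes *Hmox2* and *Ftl1* were lower, both at −0.14, and 0 were higher by edgeR, with 1 higher at an unadjusted p under 0.05 and 0 by DESeq2. Among 13 other genes listed under quinone, aldehyde and drug conjugation 1 was lower and 1 higher. The lower one was *Tiparp*, a mono-ADP-ribosyltransferase known as an AhR target, which fell from 24020 ± 986 to 1218 ± 60.9 normalized counts (SD, n = 3 per genotype), a log2 fold change of −4.31 (adjusted p = 1.6e-14 from edgeR). *Akr7a5*, an aldehyde reductase, had a log2 fold change of 0.26 (adjusted p = 0.034 from edgeR). Of 4 tested exporters the only one called was *Abcc4*, at 3011, 2987 and 3066 against 1625, 1662 and 1607 normalized counts (log2 fold change −0.89, adjusted p = 4.9e-09 from edgeR). Of 9 genes for superoxide and peroxide removal, *Sod1* at −0.21 and *Cat* at −0.18 were lower and *Park7* was higher at 0.16. *Ftl1* and *Prdx1* have processed pseudogenes, so their counts are uncertain, as are those of the genes with opposite-strand partners, *Btrc*, *Sqstm1*, *Prdx5*, *G6pdx*, *Hmox2*, *Ftl1*, *Tiparp*, *Abcc4* and *Sod1*.

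The calls of *Btrc*, *Sqstm1*, *Glrx*, *Nnt*, *Pgls*, *Mthfd2*, *Tiparp*, *Abcc4* and *Sod1* held in all 13 alternative fits, and the other 12 were each lost in 1 to 6 of them. The number called, 21 with all libraries, was 13 without Ahr+/+ replicate 3 and 11 without Ahr-/- replicate 2. With scaling by library size alone, which moved the median of all genes by 0.03 on the log2 scale, 7 were lower and 14 higher, so that the split between directions depended on the scaling.

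**Figure D5:**
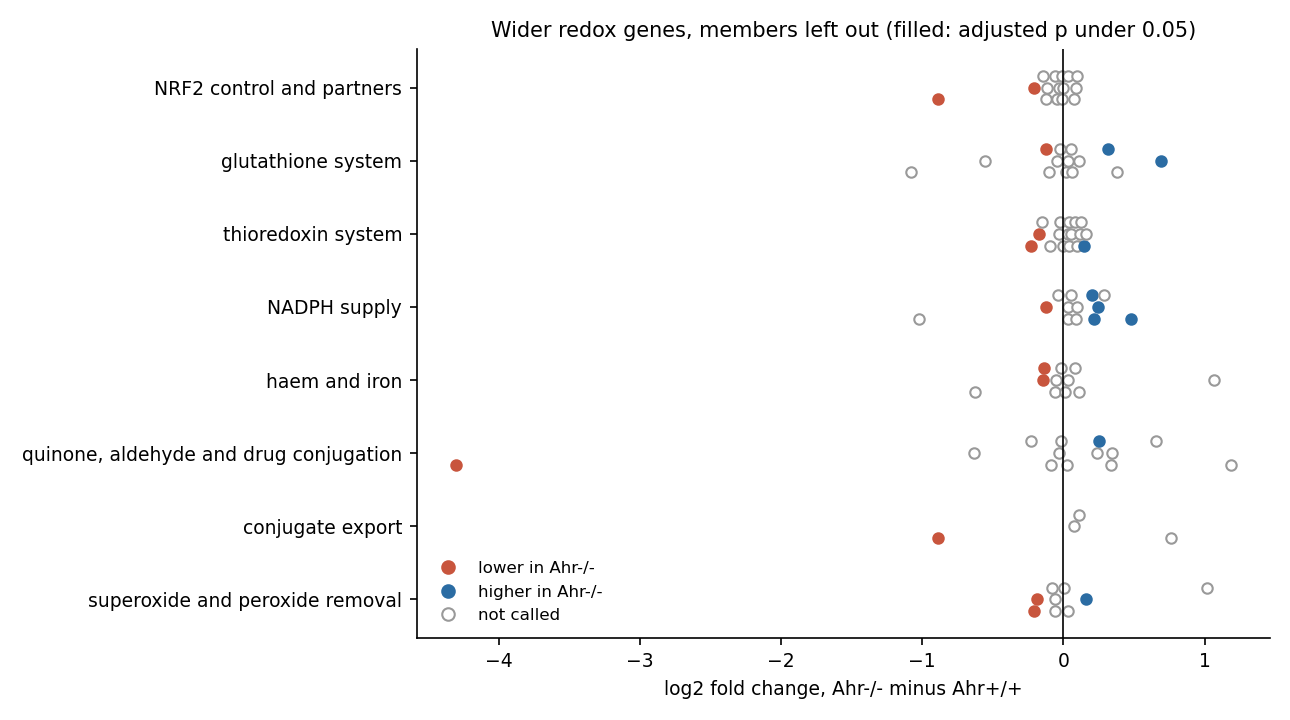
log2 fold change, Ahr-/- minus Ahr+/+ (horizontal axis), of 96 tested genes listed under the wider redox system, 1 point per gene, by list and with the 10 members left out, filled where the adjusted p was under 0.05. Among the called genes *Tiparp* is lowest at −4.31, *Btrc* and *Abcc4* are at −0.89, and the others lie between −0.23 and 0.69.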

How the data were processed

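Poly(A) RNA of 3 Ahr+/+ and 3 Ahr-/- splenic B-cell cultures had been made into stranded TruSeq libraries. The authors deposited raw counts of reads per gene, which were used here. Their notes name TopHat2, HTSeq, DESeq and the build mm10. The annotation and strand setting are not given in the sources used here, and both could shift counts between overlapping genes. Also deposited and not used were values normalized by the authors and the fold changes and p-values of their comparison. Genes were tested if their counts summed to 10 or more (13682, with 9738 below) in edgeR 4.0.16 (R 4.3.3) by the quasi-likelihood test on genotype after TMM scaling, with Benjamini-Hochberg adjustment over all genes tested and a threshold of 0.05. The procedure was tested on simulated data. DESeq2 1.42.0, other scalings and filters, a stricter threshold and leaving out each library were alternatives. The members and lists were chosen with earlier results of these data known. Beside the 10 members, the genes named were those called in each list, up to 4 per direction by absolute log2 fold change and 10 or more normalized counts on average in 1 genotype, plus *Ahr* and *Cyp1a1*. The cell type markers named were chosen after their values were seen. Gene positions and lengths came from GENCODE on GRCm38. The p-values of edgeR set the difference between genotypes against the spread between libraries of the same genotype, estimated in part across genes. The paper gives 3 mice per group.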

Additional observations from a re-analysis of the deposited data

How the results depend on the processing

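The 6 lower members stayed called and lower in 78 of 78 alternative fits, and the 4 others were called in 0 of 52. *Nqo1* ran from −4.61 to −4.38 with each library left out. The median change of *Nqo1* relative to the other members ran from −4.33 to −4.10. At an adjusted p under 0.01, 1473 genes and 9 of the wider redox genes were called. With each library left out in turn, 11 to 24 wider redox genes were called. Changes near 0 altered sign without passing the test. *Keap1* was at 0.00 with DESeq2 size factors and with DESeq2's Wald test and ran from −0.02 to 0.03 with libraries left out, *Hmox1* from −0.14 to 0.24 and *Slc7a11* from −0.17 to 0.23, with 0.02 for *Slc7a11* by library size alone. The cause of these shifts was not tested. Deviations of same-numbered libraries from their group means had correlations of −0.142, 0.246 and −0.188 over 9692 genes. Those of differently numbered libraries ran from −0.335 to 0.353, the highest for Ahr+/+ replicate 1 with Ahr-/- replicate 3. With so few libraries these values cannot show whether any shared a day or litter. With the number as a replicate block 2303 genes, 6 members and 23 wider redox genes were called, and *Nqo1* was at −4.54. *Slc7a11* had 28 to 64 counts per library, and its 95% confidence interval was the widest of the 10 members.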
